A study of Drosophila melanogaster with 4 samples.

Results

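The regions described here are the H3K27me2 clusters of the Drosophila melanogaster X chromosome, with 1 Mb left out at both ends of the assembled arm. A cluster is a stretch that the authors listed as enriched after chromatin immunoprecipitation and sequencing (ChIP-seq) with the antibody Ab24684 against histone H3 dimethylated at lysine 27. Every enriched cluster with its midpoint in this inner part of X was taken. These were 2458 of the 15589 clusters in ChIP replicate 1, 2217 of 15021 in ChIP replicate 2 and 2515 of 16862 in a combined list that the authors made from the replicate set. Among enriched clusters the rule uses position only, and it set no limit of its own on length, score, spacing or agreement. The lists were already limited, however. The shortest cluster on X had 1301 bp in both replicates, and 1001 bp where they were combined. Regions typed as depleted were left out, which bounds the scores from below. Spacing and agreement were thus measured only among regions that passed these limits.

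The chromatin came from nuclei of whole larvae of the third instar, strain Oregon-R, with a wild-type genotype and no treatment. There were 2 ChIP samples and 2 inputs, and all larvae share strain, genotype and stage. The sources used here do not state the sex of the larvae. They also do not state whether each replicate was a separate collection of larvae, so the spread between replicates may be technical. Larval tissues were homogenised together, so the values average over many cell types.

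H3K27me2 is placed by E(z), the catalytic subunit of Polycomb repressive complex PRC2, which also places the monomethyl and trimethyl forms. The trimethyl form marks the classical Polycomb targets, such as silent developmental regulators. The dimethyl form spreads far more widely over intergenic and silent chromatin and tends to be missing from actively transcribed genes. The X chromosome of flies is present as a single copy in males, where the MSL dosage compensation complex binds active X-linked genes and acetylates H4K16. The inner parts of the autosome arms 2L, 3L and 3R, trimmed in the same way, served as background. Values for each replicate and for the combined list come from separate lists, and the combined list is not a further sample.

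A slightly smaller share of X than of the autosome arms lay in clusters. Clusters covered 41.3% of inner X in replicate 1 and 32.6% in replicate 2. The mean of the 3 autosome arms was 43.6% in replicate 1 and 38.3% in replicate 2. Taken within each library, X differed from that mean by -2.31 and -5.67 percentage points, on average -3.99 ± 2.38 (SD, n = 2). The direction turned when clusters under the median score of their list were left out, where the difference was 4.32 ± 0.37 (SD, n = 2). The single arms also differed among themselves. In replicate 1, the 41.3% of X lay between 40.1% on 2L and 48.4% on 3R, whereas in replicate 2 X was below all of them, at 32.6% against 36.1% to 41.0%. In the combined list X had 50.7% and the arms had 51.7% to 57.4%. With 2 libraries, the smallest two-sided p of an exact permutation test that flips signs is 0.5, so none was run on these differences.

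X carried fewer clusters per Mb than each of the 3 arms in every list. There were 120.4 clusters per Mb on X in replicate 1, against 124.8 to 129.5 on the arms. In replicate 2 there were 108.6 per Mb on X, against 119.8 to 122.2 on the arms. In the combined list the density was 123.1 on X, against 125.8 to 140.8. The difference from the arm mean was -10.0 ± 3.78 clusters per Mb (SD, n = 2).

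**Figure D1:**
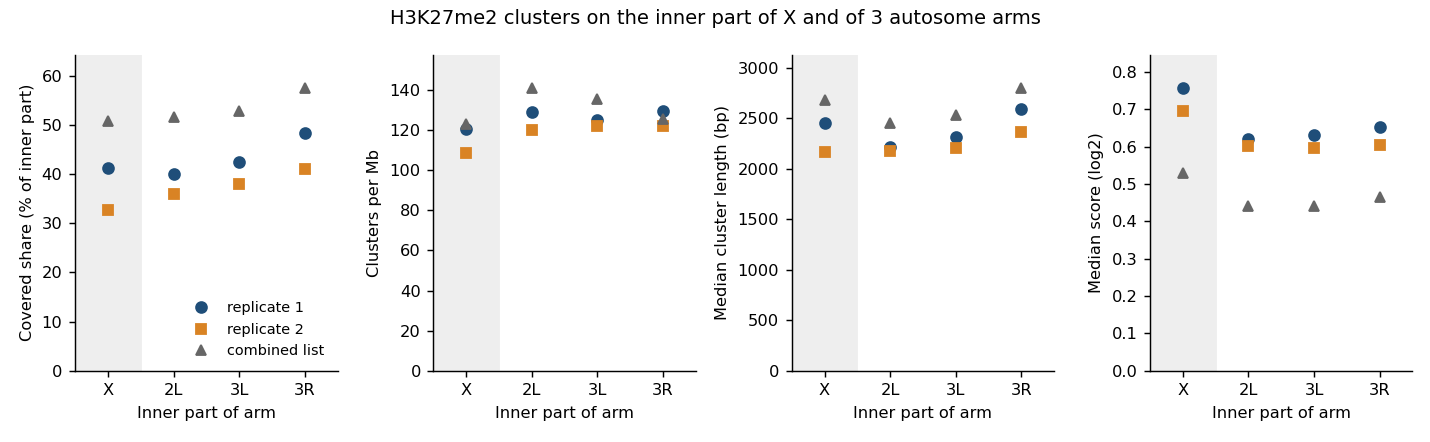
Covered share (% of the inner part), clusters per Mb, median cluster length (bp) and median score (log2) for the inner part of X (shaded) and of 2L, 3L and 3R, one point for each deposited list. X has the fewest clusters per Mb and the highest median score in all 3 lists, while its covered share falls below every arm in replicate 2 (32.6%) but not in replicate 1 (41.3%).

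Cluster length on X did not stand apart from the autosome arms in a direction that both replicates shared. The median was 2454.5 bp on X in replicate 1, between 2218 bp on 2L and 2590.5 bp on 3R. It was 2164 bp on X in replicate 2, just under the 2180 to 2360.5 bp of the arms. The difference from the arm mean was 79.2 bp in replicate 1 and -84.3 bp in replicate 2. In replicate 1 clusters under 2 kb made up 35.1% of the clusters on X and those of 2 to 4 kb 40.2%. Clusters of 4 to 10 kb made up 21.4% and those of at least 10 kb made up 3.38%. In replicate 2 the share of clusters of 4 to 10 kb was 15.6% on X, against 17.8% to 22.1% on the arms, and these clusters covered 9.72% of X against 12.3% to 15.9% of the arms. In replicate 1 the same class covered 14.9% of X, inside the range of the arms (14.2% to 18.1%). Clusters of at least 10 kb numbered 83, 53 and 175 on X in replicate 1, replicate 2 and the combined list. Their density on X was 4.06, 2.60 and 8.57 per Mb, in each list above 2L (2.14, 2.38 and 6.85) and below 3R (6.06, 3.90 and 11.4).

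Clusters on X scored higher than clusters on each autosome arm. The score is the authors' own value for a cluster and was read as a log2 enrichment. The median score was 0.76 on X in replicate 1, against 0.62 to 0.65 on the arms. It was 0.70 on X in replicate 2, against 0.60 on each arm, and 0.53 on X in the combined list, against 0.44 to 0.46. The difference from the arm mean was 0.12 in replicate 1 and 0.09 in replicate 2, on average 0.11 ± 0.02 on the log2 scale (SD, n = 2), or 1.08-fold. It was thus larger than the spread between the replicates, and larger than the spread between the arms.

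The higher score was present at each percentile compared, from the 10th to the 90th, but not at the highest single score of every list. At the 10th percentile X differed from the arm mean by 0.09 in both replicates. At the 90th percentile it differed by 0.16 in replicate 1 and 0.12 in replicate 2. The highest single score in replicate 1 was on X (2.29). In replicate 2 the highest score of X, 1.34, was below those of 2L (1.94) and 3L (1.81) and above that of 3R (1.11). In the combined list it was 1.67 on X, below that of each arm, of which 2L had the lowest (2.08). Of the clusters in the top 10% by score among the 4 inner arms, X supplied 35.4% in replicate 1 and 50.7% in replicate 2, and the combined list gave 33.9%. X held 21.7%, 20.8% and 21.3% of all clusters in these lists. In replicate 2, 24.4% of the clusters on X were in this top 10%, against 5.72% of those on 2L, 6.43% on 3L and 6.46% on 3R.

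Longer clusters scored higher on X, as on the arms, so the scores were also compared within length classes. The Spearman coefficient of length and score across the clusters of X, which are not independent, was 0.738 in replicate 1 and 0.649 in replicate 2, while the combined list gave 0.719. X lay above every autosome arm in each of the 4 length classes in each list. Among clusters under 2 kb the median score was 0.51 on X against 0.41 to 0.43 on the arms in replicate 1, and 0.61 against 0.51 to 0.52 in replicate 2. Among clusters of at least 10 kb it was 1.26 against 1.02 to 1.08 in replicate 1, and 0.88 against 0.76 to 0.78 in replicate 2. Averaged over the classes, the difference was 0.12 ± 0.02 (SD, n = 2).

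**Figure D2:**
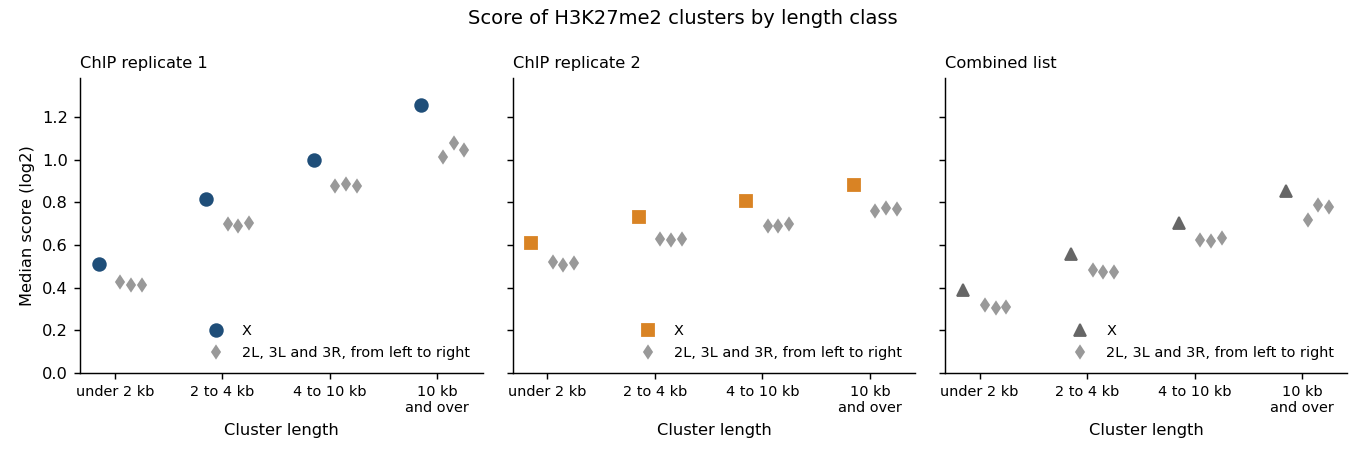
Median score (log2) of clusters in 4 length classes, with X at the left of each class and 2L, 3L and 3R to its right, for both ChIP replicates and the combined list. Scores rise with length on every arm and the point for X is the highest in each class, for example 1.26 in replicate 1 for clusters of at least 10 kb.

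The higher score was spread along the chromosome. Inner X was divided into 21 windows of 1 Mb, of which the last spans 422.8 kb. The median score of all 21 windows lay above the highest of the 3 arm medians in replicate 1 and again in replicate 2. On the arms 25 of 70 windows (35.7%) did so in replicate 1 and 35 of 71 (49.3%) in replicate 2. The last window of each arm is also short, and that of 2L, 11.5 kb, has no cluster midpoint in replicate 1. In the combined list 18 of 21 windows of X did so, against 29 of 71 on the arms (40.8%). The window medians of X ran from 0.67 to 0.93 in replicate 1 and from 0.65 to 0.74 in replicate 2. Those of the arms ran from 0.51 to 0.87 and from 0.55 to 0.77, so the highest window of replicate 2 was on an arm. Exact ties of scores, which occur when clusters take the same value, were also more frequent on X. They made up 40.3% of its clusters in replicate 1 and 59.3% in replicate 2, against 31.5% to 36.6% and 50.0% to 54.8% on the arms. The part of these ties in the score difference was not tested.

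The median spacing of neighbouring clusters on X lay within the range of the autosome arms in replicate 1 and above it in replicate 2, and X had more long stretches without a cluster. The median gap between neighbours on X was 1755 bp in replicate 1, within the 1455 to 1904 bp of the arms, and 1910 bp in replicate 2, above the 1466 to 1711 bp of the arms. The difference from the arm mean was 147 ± 200.3 bp (SD, n = 2), smaller than its spread. Gaps under 1 kb made up 35.2% of the gaps on X in replicate 1, against 33.1% to 40.3% on the arms. In replicate 2 they made up 33.5% on X, below the 35.6% to 41.2% of the arms. At the 90th percentile the gap was 12.8 kb on X in replicate 1, against 10.3 to 12.0 kb on the arms. In replicate 2 it was 14.7 kb on X, against 11.9 to 13.7 kb.

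Stretches of at least 50 kb without a cluster took up more of X than of any of the 3 arms in all lists. In replicate 1, 21 such stretches made up 6.37% of inner X, against 2.30% to 4.14% of the arms. In replicate 2, 48 made up 17.6% of inner X, against 7.73% to 10.7%. In the combined list, 15 made up 5.01% of X, against 1.41% to 2.62%. Stretches of at least 20 kb together held 21.8% of X in replicate 1 and 34.8% in replicate 2, which is 4.50 and 7.79 percentage points more than the mean arm. Stretches under 20 kb held 36.9% and 32.6%, which differs from the mean arm by -2.19 and -2.12 percentage points. Stretches that hold assembly gaps or repeats were kept.

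**Figure D3:**
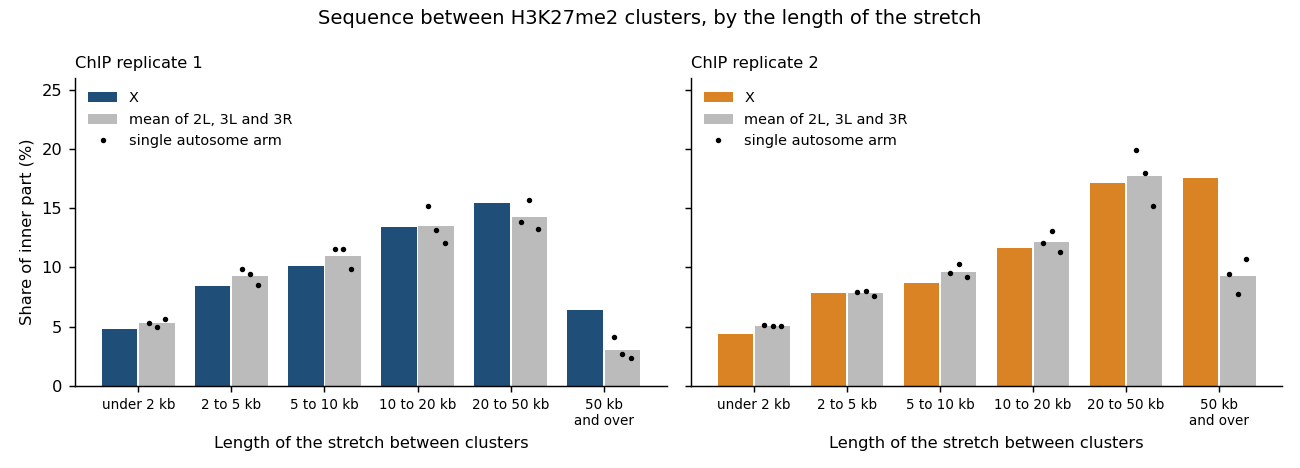
Share of the inner part (%) that lies between clusters, by the length of the stretch, for X, for the mean of 2L, 3L and 3R and for each of these arms (dots), in both ChIP replicates. X and the arms lie close together below 20 kb, and in stretches of 50 kb and over X has 6.37% in replicate 1 and 17.6% in replicate 2, above every dot.

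The long stretches of replicate 2 were not wholly empty in replicate 1. All 48 stretches of replicate 2 held at least 1 base of a replicate 1 cluster, which may lie at an edge. Wholly inside them lay 159 replicate 1 clusters. Replicate 2 stretches without any base of a replicate 1 cluster were likewise rare on the arms, with 1 of 26 on 2L, 0 of 24 on 3L and 0 of 36 on 3R. The replicate 1 clusters inside the stretches of X were short. Their median length was 1720 bp, against 2454.5 bp for all replicate 1 clusters on X, and their median score was 0.61, against 0.76. Replicate 1 bases made up 10.6% of the stretches on X and 9.64% to 13.3% on the arms. Conversely, 13 of the 21 stretches of replicate 1 on X were also free in replicate 2, against 4 of 12 on 2L, 3 of 9 on 3L and 7 of 8 on 3R. Replicate 2 placed 10 clusters wholly inside the others on X.

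In the longest such stretch of replicate 2, X 8606657 to 8762459 (155.8 kb), clusters of replicate 1 covered 22.8%. In the longest of replicate 1, X 1749681 to 1843378 (93.7 kb), clusters of replicate 2 covered 1.61%.

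Stretches free in all 3 lists at once were also denser on X. There were 101 of at least 20 kb, 4.95 per Mb, against 3.62 to 3.68 per Mb on the arms. There were 14 of at least 50 kb, 0.686 per Mb, against 0.177 to 0.309 per Mb. The longest on X, 1749681 to 1838677, spanned 89.0 kb, shorter than the longest on 2L (130.3 kb), 3L (118.2 kb) and 3R (174.7 kb). Among stretches free in all 3 lists, X thus had more long ones per Mb, and its longest was shorter than that of each arm. In the separate lists the longest gap of X was below that of each arm in replicate 1 only. In replicate 2 it was 155.8 kb on X, above 2L (133.2 kb) and 3L (122.2 kb) and below 3R (374.2 kb). In the combined list it was 133.1 kb on X, above 2L (130.3 kb) and 3L (118.3 kb) and below 3R (174.9 kb). The next longest on X lay at 15590903 to 15672749 (81.8 kb) and 15734972 to 15806290 (71.3 kb), near each other. A further pair lay side by side at 16160923 to 16223116 (62.2 kb) and 16224449 to 16293995 (69.5 kb). The break between them came from replicate 1 only. In the bin 16200001 to 16250000, which holds it, replicate 1 covered 2.66% and the other lists 0%. In the combined list both stretches lay inside the gap of 133.1 kb. That the longest free stretch of X was shorter than those of 2L and 3L thus depends on this break. The 5 others of the 10 longest lay at 6544774 to 6606082, 6712426 to 6775465, 8528042 to 8586398, 8952594 to 9012019 and 12609673 to 12662642, and spanned 53.0 to 63.0 kb.

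Along X, coverage was high in the first and last parts of the inner part. Most windows between them lay below the share of the whole inner part in both replicates. The windows of 1 Mb ran from 25.1% to 67.5% in replicate 1 and from 18.4% to 52.0% in replicate 2. The highest was 18000001 to 19000000, where clusters covered 67.5% in replicate 1 and 52.0% in replicate 2. The window 16000001 to 17000000 was the lowest, with 25.1% and 18.4%. The window at the start of inner X had 60.3% and 44.7%, and the short last window had 52.9% and 50.0%. Windows from 7000001 to 10000000 had 29.2% to 35.4% in replicate 1 and 22.0% to 26.2% in replicate 2. The window 5000001 to 6000000 had 48.8% and 43.8%, 10000001 to 11000000 had 45.5% and 36.7%, and 14000001 to 15000000 had 49.6% and 39.4%. All of these lay above the share of the whole inner part in both replicates. Coverage was higher in replicate 1 in all 21 windows, and the 2 profiles correlated over these windows with a Spearman coefficient of 0.934 (Pearson 0.946). This is a description, since all windows share the same libraries.

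Windows with more coverage also had higher-scoring clusters. The Spearman coefficient of covered share and median score over the 21 windows was 0.588 in replicate 1 and 0.631 in replicate 2, with 0.696 for the combined list. Both measures come from the same clusters, which are longer where scores are high.

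**Figure D4:**
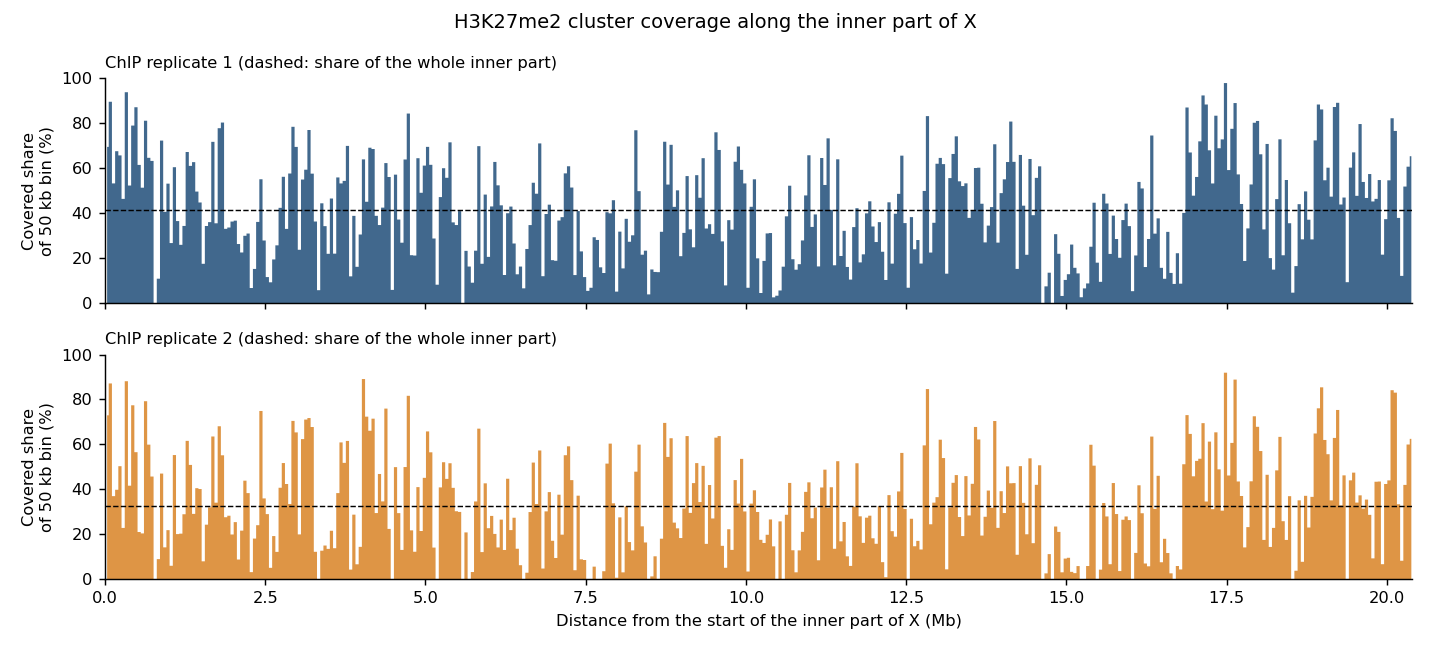
Covered share (%) of each 50 kb bin along the inner part of X against the distance from its start (Mb), in ChIP replicate 1 (above) and ChIP replicate 2 (below), with the share of the whole inner part dashed (41.3% and 32.6%). Both profiles are high at the start and again from about 17 Mb onward, and low just before that rise.

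In bins of 50 kb the coverage of X ranged from bare to almost complete. Over 408 bins the mean of the replicates had a median of 35.7%, with quartiles of 19.0% and 53.7%. The medians of the arms were 36.9%, 38.3% and 45.0% on 2L, 3L and 3R. The 10th percentile was 8.50% on X and 12.1% to 14.8% on the arms. Bins under 10% made up 12.5% of X (51 bins) and 6.41% of the arms (89 of 1388). Bins above 60% made up 16.2% of X (66 bins) and 20.0% of the arms (277), with 13.6% on 2L, 20.4% on 3L and 24.7% on 3R. Replicate 2 had no cluster in 25 bins of X and replicate 1 in 4, and these 4 were bare in all 3 lists. Of the 1388 bins of the arms, 39 had no cluster in replicate 2 and 13 had none in replicate 1, with 11 bare in all 3 lists.

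The fullest bin was X 18450001 to 18500000, covered to 98.2% in replicate 1 and to 92.1% in replicate 2. After it came 1300001 to 1350000 with 94.1% and 88.3%, and by 18600001 to 18650000 with 89.2% and 89.0%. The 2 next were 1050001 to 1100000 with 89.8% and 87.3%, and 19950001 to 20000000 with 86.4% and 85.6%. The bare bins were 1750001 to 1800000, 6550001 to 6600000, 15600001 to 15650000 and 15750001 to 15800000. The fifth lowest bin, 16200001 to 16250000, had 2.66% in replicate 1 and 0% in replicate 2.

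Neighbouring bins resembled each other over short distances only. The Spearman coefficient between bins of X that lie 50 kb apart was 0.416 in replicate 1 and 0.360 in replicate 2. It was 0.209 and 0.139 at 100 kb, 0.168 and 0.0711 at 200 kb, and 0.132 and 0.108 at 500 kb. At 1 Mb it was -0.0051 and 0.0359. On the arms the values at 50 kb were 0.434 to 0.480 in replicate 1 and 0.405 to 0.451 in replicate 2. At 500 kb the arms had 0.0368 to 0.139 in replicate 1 and -0.0341 to 0.105 in replicate 2.

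Among the longest single clusters of X, 5 lay within the first Mb of its inner part and 5 beyond 18 Mb. The longest was X 18598110 to 18647643, 49.5 kb with a combined score of 0.96. Replicate 1 covered 93.6% of it with 5 clusters and replicate 2 covered 93.3% with 8. The next was 18328193 to 18372261, 44.1 kb with a score of 0.93, covered to 96.2% in replicate 1 and 79.1% in replicate 2. The third, 21058585 to 21102583, spanned 44.0 kb with a score of 0.87, covered to 90.1% and 92.5%. A cluster near the start, 1294025 to 1333136, had a score of 1.32 and was a single cluster over 98.6% of its length in replicate 1, against 3 clusters over 94.3% in replicate 2. All 10 spanned 31.4 to 49.5 kb and were covered to 88.1% to 99.7% in replicate 1 and 75.6% to 97.3% in replicate 2. One cluster of the combined list thus corresponded to 1 to 5 clusters of replicate 1 and 2 to 8 of replicate 2.

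When clusters of the combined list closer than 1 kb were joined, the longest domains of X reached almost 100 kb. There were 113 domains of at least 20 kb on X, 5.53 per Mb, against 5.00 to 7.14 per Mb on the arms. In the single replicates there were 49 and 31 on X, 2.40 and 1.52 per Mb, in each case above 2L (1.76 and 1.29) and below 3L (2.71 and 2.04) and 3R (4.40 and 2.82). The longest domain of X, 18430086 to 18526575, spanned 96.5 kb in 6 clusters and was covered to 96.5% in replicate 1 and 77.2% in replicate 2. Second came 21045626 to 21141665, 96.0 kb in 8 clusters, with 83.0% and 86.9%, and by 18554910 to 18647643, 92.7 kb in 6 clusters, with 90.02% and 80.8%. Of the 10 longest domains 7 lay beyond 18 Mb. The domain 10497543 to 10575558 was the only one of the 10 in the middle of the chromosome and the most broken, with 78.0 kb in 13 clusters, covered to 76.7% and 63.3%.

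A single domain depended on replicate 1. It was 18134741 to 18202359, 67.6 kb in 10 clusters, covered to 88.3% in replicate 1 and to 35.7% in replicate 2. The other 9 were covered to at least 63.3% in replicate 2.

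Of the 10 highest-scored clusters among those of at least 4 kb, 6 were shorter than 10 kb and 4 spanned 11.4 to 31.6 kb. None of them lay in the 10 longest domains. At the top was X 19761805 to 19766628, 4.82 kb, with a score of 1.67 in the combined list. The cluster touching it scored 2.15 in replicate 1 and 1.13 in replicate 2. Second was 12412230 to 12419094, 6.87 kb, with a combined score of 1.58 and touching scores of 1.91 and 1.20. Next came 14082901 to 14094313 with a combined score of 1.51, whose neighbour 14074335 to 14080446 ranked 7th with 1.45. The remaining 6 had scores from 1.395 up to 1.49 and included 3 between 1378540 and 1630095. Of these 10 clusters only 1598491 to 1630095 (31.6 kb, score 1.49) was also among the 10 longest. All 10 were covered to 95.3% to 99.9% in replicate 1 and 87.4% to 98.97% in replicate 2. Replicate 1 gave them 1.70 to 2.15 and replicate 2 gave 0.92 to 1.20, taking the highest score of the touching clusters.

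The replicates shared 5.55 Mb of X, which made up 65.8% of the replicate 1 bases and 83.2% of the replicate 2 bases. The Jaccard index (bases in both lists divided by bases in at least one) was 0.581 on X, against 0.580 on 2L, 0.605 on 3L and 0.639 on 3R. Of the replicate 1 clusters on X, 1794 (73.0%) touched a cluster of replicate 2 by at least 1 base. The share on the arms was 77.1% together, and 76.4% to 77.7% on the single arms. Of the replicate 2 clusters on X, 1988 (89.7%) touched one of replicate 1, against 87.3% on the arms together, and 84.9% to 91.2% on the single arms. The lists of X were thus less balanced than those of 2L and 3L. Replicate 1 covered 8.67 percentage points more of X than replicate 2, against 4.04 on 2L, 4.48 on 3L and 7.42 on 3R.

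Agreement on X rose with cluster length. Of the replicate 1 clusters under 2 kb, 49.7% had a partner in replicate 2, against 56.3% on the arms. The share was 78.9% at 2 to 4 kb, against 83.2% on the arms, and 95.8% at 4 to 10 kb, against 98.0%. All 83 clusters of at least 10 kb had a partner, as did all 53 of replicate 2. Of the replicate 2 clusters under 2 kb, 81.7% had a partner on X, against 75.7% on the arms. On X, 664 clusters of replicate 1 had no partner. Their median length was 1777 bp, against 2926.5 bp for clusters with one, and their median score was 0.60, against 0.83. Of these 664, 286 (43.1%) lay within 2 kb of a replicate 2 cluster, against 43.6% to 47.7% on the arms, where clusters with no partner had median lengths of 1717 to 1795.5 bp and median scores of 0.47 to 0.51. In replicate 2, 229 clusters had no partner, with medians of 1649 bp in length and 0.62 in score, and 66.8% of them lay within 2 kb of a replicate 1 cluster, against 61.5% to 69.5% on the arms. Wherever it lies, a long cluster has more bases that can meet the other list, so length and agreement cannot be told apart.

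Paired clusters on X were longer in replicate 1 and their borders lay close together. Over 1626 reciprocally best pairs the median length was 3026.5 bp in replicate 1 and 2433.5 bp in replicate 2, and 68.0% of the pairs were longer in replicate 1. On the arms 56.7% to 64.4% were. The starts differed by a median of 359.5 bp and the ends by 402.5 bp, against 355 to 411 bp and 327 to 390 bp on the arms. In 33.1% of the pairs on X both ends agreed within 500 bp. The Spearman coefficient of the paired scores was 0.546 on X (Pearson 0.590), against Spearman coefficients of 0.530 to 0.593 on the arms. These describe clusters of the same 2 libraries. The median score of the pairs was 0.85 in replicate 1 and 0.71 in replicate 2 on X. On the arms it was 0.69 to 0.76 and 0.61 to 0.62, so the higher score of X was also present among the clusters found in both replicates.

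Across the 408 bins of 50 kb the Spearman coefficient between the covered shares of both replicates was 0.871 on X (Pearson 0.866). On the arms the Spearman coefficients were 0.843 to 0.872. Bins share both libraries and are not independent. Replicate 1 was higher in 337 bins and lower in 67, with a mean difference of 8.68 percentage points and an SD over bins of 11.6. The share of bins higher in replicate 1 was 82.6% on X and 64.8% to 78.6% on the arms. The mean difference on the arms was 4.05 to 7.42 percentage points. The widest difference was in 18150001 to 18200000, with 88.6% in replicate 1 and 34.7% in replicate 2, inside the domain that depended on replicate 1. Next were 7050001 to 7100000 with 63.0% and 20.2%, and 20550001 to 20600000 with 79.9% and 37.4%. In the other direction the widest was 16350001 to 16400000, with 25.2% in replicate 1 and 59.98% in replicate 2. Next were the neighbouring bins 5050001 to 5100000 with 45.2% and 72.5%, and 5000001 to 5050000 with 64.1% and 89.3%.

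**Figure D5:**
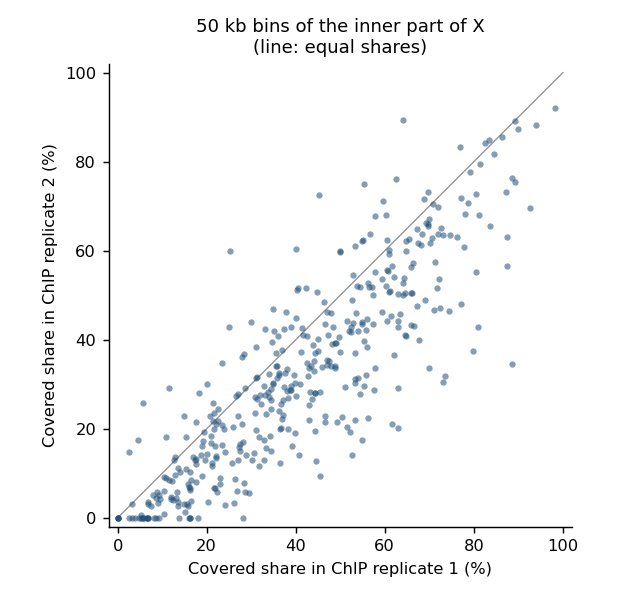
Covered share (%) of each of the 408 bins of 50 kb on inner X in ChIP replicate 1 (horizontal) and ChIP replicate 2 (vertical), with the line of equal shares. Most points lie below the line (337 bins are higher in replicate 1), and the row of points at the bottom holds the 25 bins with no cluster in replicate 2.

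The combined list took in 98.8% of the replicate 1 bases and 96.6% of the replicate 2 bases on X. Of its 2515 clusters on X, 1405 (55.9%) touched clusters of both replicates, against 58.3% on the arms together. A further 553 touched replicate 1 only, 182 touched replicate 2 only and 375 touched neither. Clusters that touched both had medians of 4348 bp and 0.68. Those that touched neither had 1240 bp and 0.41, and on the arms such clusters had 1237 to 1253 bp and 0.33 to 0.35. The lists differ in their shortest clusters, 1001 bp in the combined list and 1301 to 1302 bp in the replicates on X and the arms. These median lengths thus lie below the shortest cluster of either replicate. The part of this difference in the lack of overlap was not tested. Bases in neither replicate made up 11.1% of the combined list on X, against 8.18% to 11.6% on the arms. The sources used here do not state how the combined list was made.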

How the data were processed

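Whole-larva chromatin was analysed by ChIP-seq in 2 ChIP samples, each with an input. Per the submitters' processing notes, Bowtie 0.12.7 was the aligner. Coordinates are FlyBase release 5, per the file headers. The sources used here state neither the cluster caller nor its thresholds and scaling of input. The authors deposited 3 region lists, for replicate 1, replicate 2 and both combined, with a score per region. The deposited score was read as log2, because distinct scores lay exactly 1 apart, within 1e-09, in 398, 78 and 246 pairs of the 3 lists and in 0 pairs by ln 2 or log10 of 2. The files hold no read counts, so depth is unknown and no interval is given. Input samples had no list of their own here.

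Clusters were assigned by midpoint, and covered bases were counted inside the trimmed arm. Regions typed as depleted were left out. Python 3.11.15, matplotlib 3.10.9, scipy 1.17.1, pandas 2.3.3 and numpy 2.4.6 were used, and the interval functions were tested on simulated data. With 2 ChIP samples all comparisons are descriptions with the SD over the libraries. Alternatives were the combined list, a cut at the median score, a minimum of 2 kb, joining within 1 kb, a trim of 2 Mb, other bin sizes, and each replicate or arm left out. Named regions were the 10 longest clusters, the 10 highest-scored of at least 4 kb, the 10 longest domains and free stretches, and 5 bins at each extreme of the mean and of the difference between replicates. The region rule and these lists were chosen with earlier results of these data known. Genes and sequences under the clusters were not analysed here.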

Additional observations from a re-analysis of the deposited data

How the results depend on the processing

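The score difference between X and the arm mean kept its direction in 10 of 10 alternatives, from 0.05 to 0.12. It was 0.09 to 0.12 in single replicates, 0.081 in the combined list and 0.048 with low-scored clusters removed, a cut at the list median that narrows scores by construction. The covered share of X differed from the arm mean by -5.67 to -2.31 percentage points in single replicates. This difference kept its direction in 9 of 10 alternatives. With 3R left out of the arm mean it was -2.14 ± 3.12 (SD, n = 2), smaller than its spread. The median-score cut turned it to 4.32, with a gap difference of -2001.2 bp and a length difference of -730.9 bp. That cut keeps more clusters on X, which score higher. The gap difference was 5.33 to 288.7 bp in single replicates. The length difference was -84.3 to 79.2 bp in single replicates and -163.3 bp after joining within 1 kb, where the cause was not tested. The covered share of X was 32.6% to 41.3% in single replicates, 50.7% in the combined list, 29.2% under the median-score cut and 29.9% for clusters of at least 2 kb. The mean number of clusters, 2337.5, became 2217 to 2458 in single replicates, 1500.5 under the median-score cut, 1533 with joining and 1449.5 for clusters of at least 2 kb, and these filters lower it by construction. The Jaccard index was 0.527 under the median-score cut and 0.521 for clusters of at least 2 kb. The score coefficient was 0.599 at a reciprocal overlap of 50%. The cause was not tested for these. Leaving out 1 replicate leaves the values of the other one. No paired analysis was possible because only ChIP samples have lists, while equal numbers pair each ChIP sample with an input. The depth behind the lists is not known, and its limits could not be measured.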

Other observations

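Regions typed as depleted, with a score below 0, numbered 2 on inner X in the combined list, against 6 on 2L, 12 on 3L and 4 on 3R. Replicate 1 had 0 on X, against 7, 4 and 1 on these arms, and replicate 2 had 0 on X and on each of them. Those of X lay at 13305689 to 13307212 (1524 bp, score -0.02) and 18133126 to 18134645 (1520 bp, score -0.06). Enriched clusters of replicate 1 covered 95.7% and 100% of them, with scores of 0.09 and 0.10, and no cluster of replicate 2 touched either. The second lies just before the domain that depended on replicate 1.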
